A study of Mus musculus with 24 samples.

Results

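Branched-chain amino acid breakdown was followed here through 10 genes, Bcat1, Bcat2, Bckdha, Bckdhb, Dbt, Dld, Ivd, Mccc1, Hibch and Hibadh, which are named for their place in the pathway. All 10 were found among the 37310 genes of the expression tables, and all 10 passed the filter on low values that left 14095 genes for testing. Each was matched by symbol to 1 Ensembl gene.

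Collagenase had freed the cells, the stromal vascular fraction of adipocyte precursors and other cell types, from C57BL/6 mice aged 6 weeks, and no transgene or deletion is named in any group. White cells (WAT) came from the inguinal depot and brown cells (BAT) from the interscapular depot. At confluence all cultures received insulin, dexamethasone and 3-isobutyl-methylxanthine for 4 days and afterwards insulin with triiodothyronine, and either epigallocatechin gallate (EGCG), the main catechin of green tea, or its solvent DMSO (control) was present in the medium. RNA was sequenced on day 4 and on day 8 of differentiation, which gave 8 groups (WAT or BAT, day 4 or 8, control or EGCG) of 3 libraries and 24 libraries in all. The labels give no EGCG dose, no sex, no number of mice and no word on whether the replicates of a group were separate cultures, so p-values measure only the spread between these libraries, which may be technical.

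Leucine, isoleucine and valine are first transaminated, by the cytosolic enzyme encoded by Bcat1 or the mitochondrial enzyme encoded by Bcat2, and the resulting keto acids are then committed to oxidation by the branched-chain keto acid dehydrogenase complex (BCKDH) in the mitochondrial matrix. Separate branches carry the products onward, leucine through Ivd and Mccc1 and valine through Hibch and Hibadh. Mature white and brown adipocytes are known to oxidise these amino acids, and the carbon can enter lipid synthesis or the citric acid cycle.

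Promoter sequences from RefSeq are shown for the aminotransferase pair, whose mRNA levels moved in opposite directions, and for the E1 subunit pair of BCKDH, whose levels fell together with EGCG. Of the 10 genes, 9 had an entry in the RefSeq promoter table, which was built on GRCm38.p6, and Dbt had none. Bcat1, Bcat2 and Bckdhb had a pair of entries each, which made 12 windows in all. Each entry spans 250 bases before to 50 bases after a start site, and 11 of the 12 were placed on NCBIM37 (mm9), the build of the data, by exact match at a single position. The other, the second Bckdhb window, matched at 2 positions and was not placed. Of each pair, the window whose start site lies nearer the annotated gene start, or the one that was placed, is shown. The Bcat1 window lies on the minus strand at chr6:145024628-145024927 and the Bcat2 window on the plus strand at chr7:52825273-52825572. The Bckdha window lies on the minus strand at chr7:26443731-26444030 and the Bckdhb window on the plus strand at chr9:83818494-83818793. Capitals mark letter matches, on either strand, to CCAAT (the NF-Y motif), GGGCGG (the GC box) or TGANTCA (the AP-1 motif).
Bcat1: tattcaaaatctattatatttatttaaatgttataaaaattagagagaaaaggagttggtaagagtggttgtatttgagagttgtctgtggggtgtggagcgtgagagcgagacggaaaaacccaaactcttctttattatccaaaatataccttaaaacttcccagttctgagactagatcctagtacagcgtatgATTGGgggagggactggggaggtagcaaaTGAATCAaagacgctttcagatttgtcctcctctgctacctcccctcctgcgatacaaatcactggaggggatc
Bcat2: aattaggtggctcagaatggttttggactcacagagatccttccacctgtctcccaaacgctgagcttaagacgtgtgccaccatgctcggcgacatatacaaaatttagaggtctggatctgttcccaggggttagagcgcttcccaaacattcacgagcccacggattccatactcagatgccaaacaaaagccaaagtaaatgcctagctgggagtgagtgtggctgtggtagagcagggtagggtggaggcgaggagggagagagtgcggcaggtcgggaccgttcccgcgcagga
Bckdha: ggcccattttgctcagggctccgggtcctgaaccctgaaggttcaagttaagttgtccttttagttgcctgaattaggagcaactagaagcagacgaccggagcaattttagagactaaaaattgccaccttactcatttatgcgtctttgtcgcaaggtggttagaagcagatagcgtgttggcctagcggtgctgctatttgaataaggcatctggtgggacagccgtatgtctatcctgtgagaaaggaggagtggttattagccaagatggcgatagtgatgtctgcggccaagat
Bckdhb: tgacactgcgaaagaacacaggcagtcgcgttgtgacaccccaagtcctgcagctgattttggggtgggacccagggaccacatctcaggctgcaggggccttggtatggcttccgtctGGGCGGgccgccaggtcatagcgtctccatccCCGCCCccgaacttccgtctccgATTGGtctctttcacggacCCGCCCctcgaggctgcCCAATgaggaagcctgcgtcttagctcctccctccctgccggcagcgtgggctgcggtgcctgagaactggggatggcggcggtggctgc
The Bcat1 window shown held CCAAT once, 53 bases before the start site (position -53), and TGANTCA once, at -24. The Bckdhb window shown held CCAAT at -76 and -40 and GGGCGG at -131, -99 and -57, whereas none of the motifs searched was spelled out in the Bcat2 or Bckdha window shown. The second windows of Bcat1 and Bcat2 held none of the motifs, and that of Bckdhb held only CCAAT, at position 5 after the start site. Among 32851 mouse promoter windows of the same length, 37.4% held CCAAT, 35.7% held GGGCGG and 7.81% held TGANTCA. TCAAGGTCA (ERR, in 0.423% of all windows), GCGCATGCG (NRF1, 1.75%), CACGTG (the E-box, 7.15%) and TTGCGCAA (C/EBP, 0.183%) were also searched on both strands and were found in no window of the 9 genes. A letter match describes the window and not a bound site.

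Levels are given as FPKM, fragments scaled to the length of the gene's longest transcript and to the library's mapped reads. Comparing levels between genes assumes that the longest transcript is the one expressed, which was not examined. Replicates 1 and 2 of every group were deposited in 1 table and replicate 3 in another that had been normalised on its own, so tests used replicates 1 and 2 (n = 2 per group) and replicate 3 is set beside them as a check. Reads on genes numbered 39452696 to 52893848 in the libraries of replicates 1 and 2 and 16392420 to 41675648 in those of replicate 3, and no member had fewer than 146 reads in any library. The WAT day 8 EGCG library of replicate 3 stands apart, with 61.0% of its reads on 5 genes against at most 10.5% elsewhere. The deposited FPKM values of the 10 genes summed to 66.8 in it against 165 and 167 in the other libraries of its group, and it is shown after rescaling by the median ratio over genes, which divides by its size factor of 0.413.

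With EGCG, Bcat1 was higher and the other 9 genes were lower, in both depots and on both days. In WAT on day 4, 1 gene was called higher and 9 lower, at a Benjamini-Hochberg adjusted p under 0.05 over all genes tested with limma, where 34.4% of all genes were called higher and 19.3% lower. The same 1 and 9 were called in WAT on day 8 (44.7% and 18.9% of all genes), in BAT on day 4 (27.9% and 20.6%) and in BAT on day 8 (46.5% and 26.1%). The median log2 change of the 10 genes, on the log2(FPKM + 1) scale, was -0.53 in WAT on day 4, -1.25 in WAT on day 8, -0.99 in BAT on day 4 and -2.06 in BAT on day 8. Over all genes tested the corresponding medians were 0.09, 0.17, 0.03 and 0.17. All of these are bulk measurements, in which fewer cells of a type and less RNA per cell cannot be told apart. Each of the 10 genes had the same direction in replicate 3 in all 4 comparisons. Of all called genes, 92.5% (WAT day 4), 89.1% (WAT day 8), 95.1% (BAT day 4) and 92.7% (BAT day 8) did so too. None of the calls of the 10 genes was lost under any alternative run here.

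The scaling of the libraries decided how the remaining genes split, though not these 10. With median-ratio scaling the counts over all genes changed from 4853 higher and 2714 lower to 3343 and 4131 in WAT on day 4, and from 6302 and 2660 to 4087 and 3888 in WAT on day 8. In BAT on day 8 they changed from 6549 and 3682 to 5100 and 4741. With quantile normalization, the WAT day 4 split was 3769 and 3416. Median-ratio scaling lowered the median of all genes by more than 0.1 in these 3 comparisons (to -0.02, 0.01 and 0.02), and the medians of the 10 genes became -0.67, -1.44 and -2.25. Fits of both tables together, given below, also used median-ratio scaling.

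**Figure D1:**
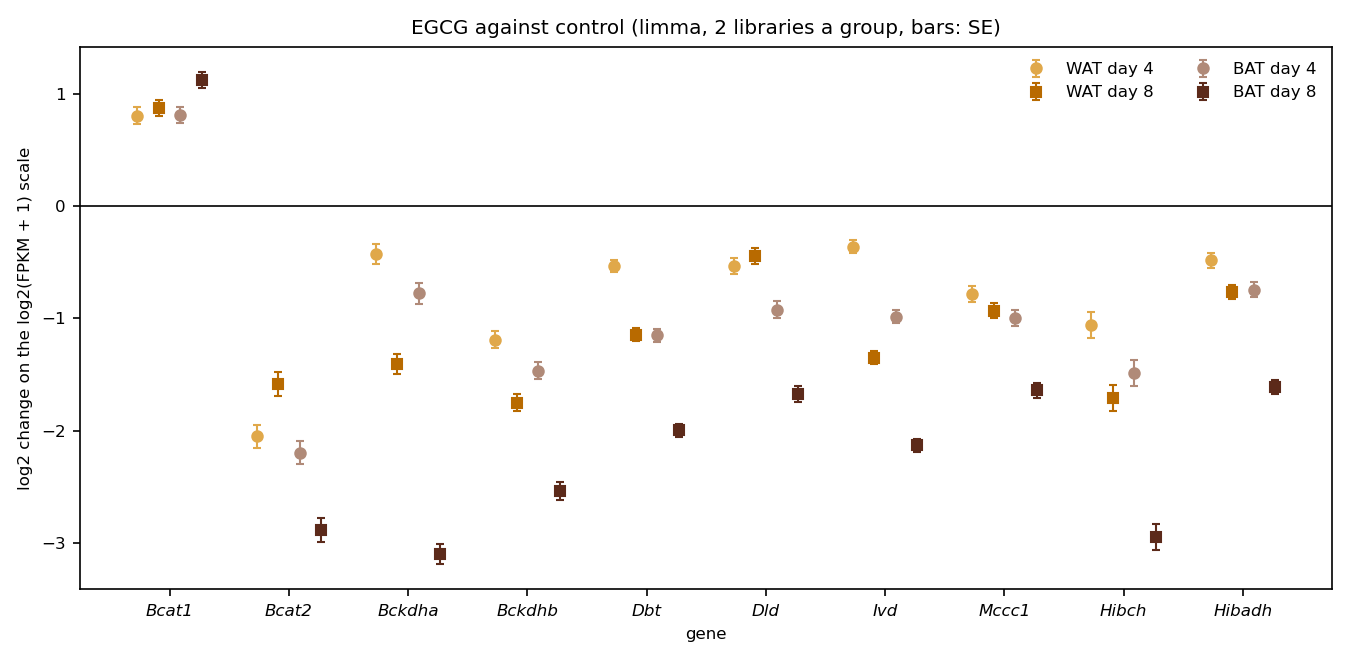
Log2 change with EGCG against control on the log2(FPKM + 1) scale (y axis) for each of the 10 genes (x axis), from limma on 2 libraries a group, with bars for the standard error; circles are day 4, squares day 8, and the pale and dark shades of orange and brown are WAT and BAT. Bcat1 lies above 0 in every comparison (0.81 to 1.13), every other gene lies below 0, and BAT on day 8 has the lowest point for each of those 9 genes.

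Bcat1, the cytosolic aminotransferase, had the lower FPKM of the pair in control cells. In WAT it was at 10.3, 10.8 and 9.94 FPKM (replicates 1, 2 and 3) in day 4 controls and at 20.0, 18.5 and 21.6 FPKM with EGCG. On day 8 the WAT controls were at 5.98, 5.35 and 5.26 FPKM and the EGCG libraries at 11.2 and 11.2 FPKM, with the rescaled replicate 3 at 12.1. Every EGCG library was above every control library of its day. In BAT the day 4 controls were at 10.9, 9.71 and 10.0 FPKM against 19.6, 18.0 and 19.8 with EGCG, and the day 8 controls were at 3.21, 3.63 and 3.71 FPKM against 8.77, 8.49 and 10.1 with EGCG. The groups again had no overlap. For this and the later statements on overlap, the share of all genes tested was not counted. The log2 increase was 0.81 ± 0.07 (SE) in WAT on day 4 (adjusted p = 3.3e-06), 0.87 ± 0.07 in WAT on day 8 (adjusted p = 9.1e-07), 0.81 ± 0.07 in BAT on day 4 (adjusted p = 3.0e-06) and 1.13 ± 0.07 in BAT on day 8 (adjusted p = 5.1e-08). As a ratio of mean FPKM this was 1.82, 1.98, 1.83 and 2.53. In the order of its 8 group means, Bcat1 was highest in WAT and BAT day 4 EGCG, which overlapped, and lowest in BAT day 8 control, 5.63-fold below the top. A gene on the opposite strand, Gm17263, shares 337 exonic bases with Bcat1, and reads from the pair could not be told apart if counting ignored strand, which is not given in the sources used here.

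Bcat2, the mitochondrial aminotransferase, moved the opposite way and by more. Its WAT levels on day 4 were 65.2, 54.1 and 76.8 FPKM in controls and 13.5, 13.7 and 14.8 FPKM with EGCG. On day 8 they were 46.4, 56.8 and 55.8 FPKM in controls and 16.6 and 16.2 FPKM with EGCG, with the rescaled replicate 3 at 17.6. No EGCG library reached the level of a control library. In BAT the controls were at 106, 127 and 148 FPKM on day 4 and at 123, 128 and 135 FPKM on day 8. With EGCG these became 24.1, 25.1 and 31.0 FPKM on day 4 and 16.4, 15.9 and 20.1 FPKM on day 8, the latter at the level of the WAT EGCG libraries of the same day. The log2 change was -2.05 ± 0.10 (WAT day 4, adjusted p = 3.1e-08), -1.59 ± 0.10 (WAT day 8, adjusted p = 1.3e-07), -2.20 ± 0.10 (BAT day 4, adjusted p = 2.2e-08) and -2.89 ± 0.10 (BAT day 8, adjusted p = 4.1e-10). On day 8 in BAT the mean with EGCG was 0.128 of the control mean. Bcat2 shares 622 exonic bases with 0610005C13Rik on the opposite strand.

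Taking Bcat2 over Bcat1 within each library removes any scaling of that library. These ratios were added after the values had been seen, so they are given with no test. In WAT day 4 controls the ratio was 5.02 to 7.73, and with EGCG it was 0.673 to 0.739. The latter was the only group in which Bcat1 had the higher FPKM of the pair in all 3 libraries. On day 8 in WAT it was 7.76 to 10.6 in controls and 1.45 to 1.48 with EGCG, where the library of replicate 3 that stands apart gave 1.46. In BAT the ratio was 9.77 to 14.7 in day 4 controls and 1.23 to 1.57 with EGCG. The widest separation was in BAT on day 8, with 35.4 to 38.5 in controls and 1.87 to 1.98 with EGCG.

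**Figure D2:**
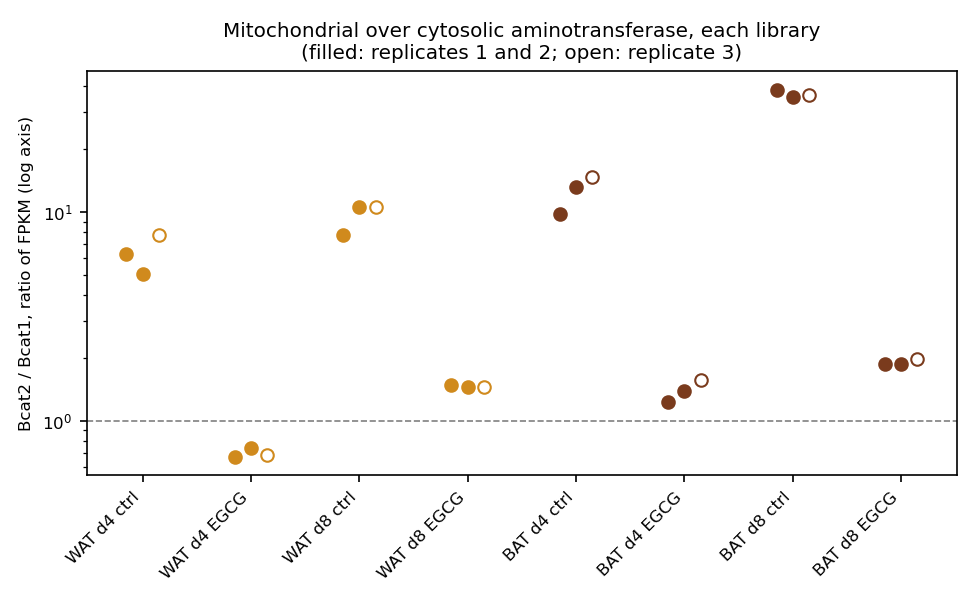
Ratio of Bcat2 FPKM to Bcat1 FPKM (y axis, log scale) in each of the 24 libraries by group (x axis); filled points are replicates 1 and 2, open points replicate 3, and the dashed line marks equal levels. Controls run from 5.02 to 38.5, EGCG libraries from 0.673 to 1.98.

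BCKDH is built from E1 (the alpha subunit Bckdha and the beta subunit Bckdhb), the E2 transacylase core (Dbt) and E3 (Dld), a dihydrolipoamide dehydrogenase that also serves the pyruvate and 2-oxoglutarate dehydrogenase complexes. All 4 subunits fell with EGCG in every comparison, but by different amounts. Bckdha in BAT on day 8 was at 175, 177 and 183 FPKM in controls and at 19.3, 20.0 and 23.7 FPKM with EGCG, a log2 change of -3.10 ± 0.09 (adjusted p = 8.3e-11) and the largest of the 10 genes in any of the 4 EGCG comparisons. In BAT on day 4 the controls were at 36.2, 43.5 and 53.4 FPKM and the EGCG libraries at 21.3, 24.2 and 29.0 FPKM, a change of -0.78 ± 0.09 (adjusted p = 2.6e-05). The BAT control and EGCG libraries had no overlap on either day. In WAT, Bckdha was at 33.1, 32.0 and 36.2 FPKM in day 4 controls against 24.2, 23.8 and 27.6 with EGCG (-0.42 ± 0.09, adjusted p = 0.0022). On day 8 it was at 53.8, 64.4 and 68.1 FPKM in WAT controls against 21.2 and 22.0 with EGCG, the rescaled replicate 3 being at 24.1 (-1.41 ± 0.09, adjusted p = 1.2e-07). The 4 EGCG group means of Bckdha lay close together, between 19.6 and 24.01 FPKM, while its control means ran from 32.6 to 176 FPKM.

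Bckdhb, the partner subunit, fell by more than Bckdha in WAT and in BAT on day 4 and by less in BAT on day 8. In BAT day 8 controls it was at 43.5, 43.5 and 42.5 FPKM, and with EGCG at 7.02, 6.31 and 6.57 FPKM (-2.54 ± 0.08, adjusted p = 9.5e-11). In WAT on day 4 it was at 22.0, 19.9 and 21.2 FPKM in controls and at 8.52, 8.70 and 7.85 FPKM with EGCG (-1.19 ± 0.08, adjusted p = 2.0e-07). Its changes in WAT on day 8 and in BAT on day 4 were -1.75 ± 0.08 and -1.47 ± 0.08. Within libraries, Bckdha over Bckdhb was 1.12 to 1.47 in BAT day 4 controls and 4.03 to 4.31 in BAT day 8 controls, so the FPKM values of the E1 pair were far from equal by day 8. With EGCG this ratio was 1.84 to 2.61 on day 4 and 2.75 to 3.60 on day 8 in BAT, that is above the day 4 controls and below the day 8 controls. In WAT it was higher with EGCG on both days, at 2.73 to 3.52 against 1.50 to 1.71 on day 4 and at 3.25 to 4.18 against 2.30 to 2.90 on day 8. The difference between the subunits was described and not tested.

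Dbt and Dld fell by less than Bckdhb in each of the 4 comparisons. Dbt in BAT on day 8 was at 48.4, 47.7 and 38.3 FPKM in controls and at 10.98, 11.6 and 10.2 FPKM with EGCG (-1.996 ± 0.06, adjusted p = 6.7e-11). Its other changes were -0.53 (WAT day 4), -1.15 (WAT day 8) and -1.15 (BAT day 4). Dld in BAT on day 8 was at 150, 154 and 136 FPKM in controls against 46.8, 47.0 and 48.4 FPKM with EGCG (-1.67 ± 0.07, adjusted p = 1.7e-09). In WAT, Dld changed by -0.53 ± 0.07 on day 4 (adjusted p = 8.4e-05) and by -0.44 ± 0.07 on day 8 (adjusted p = 0.00021), the smallest change of the 4 subunits on that day. Its mean with EGCG in WAT on day 8 was 0.729 of the control mean, against 0.268 for Bckdhb in the same libraries.

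In the leucine branch, Ivd (isovaleryl-CoA dehydrogenase) in BAT on day 8 was at 54.3, 53.2 and 51.4 FPKM in controls and at 11.3, 11.7 and 11.6 FPKM with EGCG (-2.13 ± 0.06, adjusted p = 4.9e-11). Its WAT levels on day 4 were 20.8, 20.1 and 21.6 FPKM in controls and 15.6, 15.9 and 14.5 FPKM with EGCG, the smallest fall among the 9 lower genes there (-0.36 ± 0.06, adjusted p = 0.00030). On day 8 the WAT change was -1.35 ± 0.06, and in BAT on day 4 it was -0.99 ± 0.06. Mccc1, the biotin-carrying subunit of methylcrotonyl-CoA carboxylase, had the lowest control level of the 9 genes that fell, at 8.15 to 12.7 FPKM in the day 4 controls of both depots and at 16.3, 17.0 and 17.6 FPKM in BAT day 8 controls. With EGCG its deposited values were between 4.08 and 5.44 FPKM in every group, apart from the library of replicate 3 that stands apart (3.61 after rescaling). The log2 changes were -0.78, -0.93, -0.99 and -1.64 in the order WAT day 4, WAT day 8, BAT day 4 and BAT day 8. Mccc1 shares 198 exonic bases with A330050B17Rik on the opposite strand.

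In the valine branch, Hibch (3-hydroxyisobutyryl-CoA hydrolase) had the widest range of the 10 genes over the 8 groups, 10.8-fold between BAT day 8 control and WAT day 8 EGCG. In BAT its day 8 controls were at 84.1, 86.6 and 81.6 FPKM and the EGCG libraries at 10.4, 9.92 and 10.3 FPKM (-2.95 ± 0.12, adjusted p = 7.8e-10). In WAT the day 8 controls were at 24.1, 32.8 and 31.3 FPKM and the EGCG libraries at 8.29 and 7.57 FPKM, with the rescaled replicate 3 at 8.09 (-1.71 ± 0.12, adjusted p = 1.7e-07). The control and EGCG libraries of either depot had no overlap. On day 4 the changes were -1.06 ± 0.12 in WAT and -1.49 ± 0.12 in BAT. Hibadh, the dehydrogenase of the next step, was the more abundant transcript in every group and fell by less, by 0.48 and 0.77 on the log2 scale in WAT and by 0.75 and 1.61 in BAT (days 4 and 8). Its BAT day 8 levels were 102, 103 and 99.1 FPKM in controls and 34.0, 31.9 and 32.9 FPKM with EGCG.

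**Figure D3:**
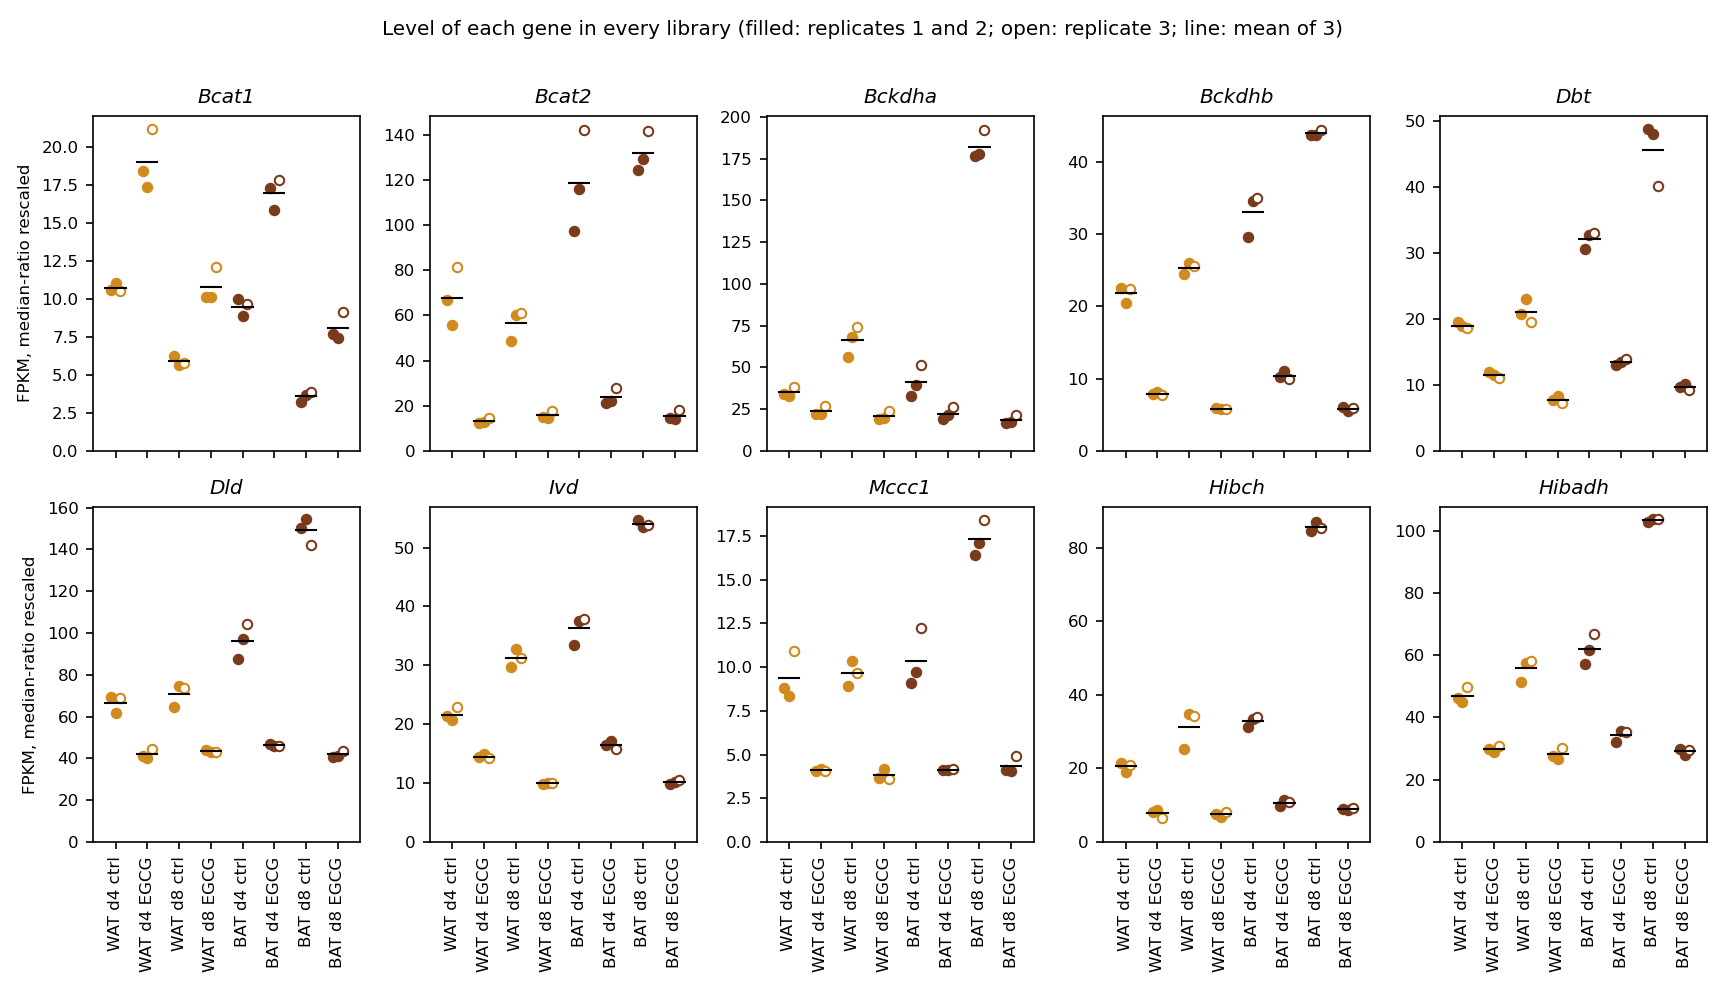
FPKM after median-ratio rescaling over both tables (y axes, 1 panel a gene) in each library by group (x axes); orange is WAT, brown is BAT, filled points are replicates 1 and 2, open points replicate 3, and lines the mean of 3. Bcat1 is highest in the day 4 EGCG groups, and every other gene is highest in BAT controls, such as Bckdha on day 8 at a rescaled mean of 182 FPKM against 18.6 with EGCG.

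Between day 4 and day 8 of control differentiation, most of these genes rose in BAT and fewer did in WAT. In BAT 8 genes were called higher and 1 lower (28.7% and 40.4% of all genes), and in WAT 5 higher and 1 lower (27.7% and 33.2%). Median-ratio scaling changed the split over all genes in BAT from 4050 higher and 5701 lower to 5026 and 4400, and 9 of the 10 genes were then higher. Bckdha rose most in both depots, from a mean of 39.8 to 176 FPKM in BAT (log2 change 2.12 ± 0.09, adjusted p = 3.0e-09) and from 32.6 to 59.1 FPKM in WAT (0.84 ± 0.09, adjusted p = 9.4e-06). Hibch rose by 1.25 ± 0.12 in BAT (adjusted p = 1.6e-06) and by 0.48 ± 0.12 in WAT (adjusted p = 0.0034). Ivd rose by similar amounts, 0.46 ± 0.06 in BAT and 0.51 ± 0.06 in WAT. Bcat1 was the gene that fell, by 1.36 ± 0.07 in BAT (adjusted p = 1.6e-08) and by 0.79 ± 0.07 in WAT (adjusted p = 2.3e-06).

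The change of Bcat2 between days was 0.11 in BAT (95% interval -0.12 to 0.34) and -0.21 in WAT (-0.44 to 0.02), neither of which passed the test. It passed with median-ratio scaling in BAT, at 0.26. In WAT it passed when both tables were fitted together, at -0.25, and without replicate 2 of the day 4 controls (-0.34) or of the day 8 controls (-0.35). The remaining 6 genes all passed in BAT, with log2 changes of 0.30 (Bckdhb), 0.46 (Dbt), 0.58 (Dld), 0.64 (Mccc1) and 0.65 (Hibadh) beside Ivd. The Bckdhb call in BAT was lost without replicate 1 of the day 4 controls, at 0.19. In WAT only Hibadh (0.22, adjusted p = 0.014) and Dbt (0.14, adjusted p = 0.048) passed among these 6 beside Ivd, and Bckdhb (0.19, adjusted p = 0.051), Mccc1 (0.12) and Dld (0.05) did not. Bckdhb did pass in WAT with median-ratio scaling (0.22), quantile normalization (0.24), both tables fitted together (0.21) and without replicate 1 of the day 4 controls (0.26), and Mccc1 without replicate 1 of the day 8 controls (0.21). The WAT calls of Dbt and Hibadh were lost when low genes were not filtered out, without replicate 2 of the day 4 controls (0.12 and 0.19) and without replicate 2 of the day 8 controls (0.08 and 0.14), and that of Dbt also without replicate 1 of the day 4 controls (0.17).

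The rise differed between depots for 7 genes, as tested by the interaction of day and depot. Bckdha, Hibch, Dld, Mccc1, Hibadh and Dbt rose by more in BAT (14.8% of all genes were called in that direction), with differences of 1.29 ± 0.13, 0.76 ± 0.16, 0.53 ± 0.10, 0.53 ± 0.10, 0.43 ± 0.09 and 0.32 ± 0.08 on the log2 scale. Bcat1 fell by more in BAT, by a further 0.56 ± 0.10 (25.1% of all genes were called lower). With median-ratio scaling the split of all genes went from 2089 higher and 3542 lower to 2992 and 2477, and 7 of the 10 genes were called higher, Bcat2 (0.43) being the addition. Bcat2 was also called with both tables fitted together (0.42), and without replicate 2 of the WAT day 4 (0.45), WAT day 8 (0.46) or BAT day 4 controls (0.45). For Ivd the difference was -0.06 (95% interval -0.24 to 0.12) and for Bckdhb 0.11 (-0.12 to 0.35). In this contrast 15 of 20 general mitochondrial genes and 10 of 14 other breakdown enzymes were called higher, and 0 of either list lower. Their medians were 0.68 and 0.61, beside 0.37 for the 10 genes. Skeletal muscle markers moved with this contrast, as did markers of other cells. The summed FPKM of 8 of them was between 14.3 and 22.3 in BAT day 4 controls and between 42.1 and 44.4 in BAT day 8 controls, and in WAT between 55.0 and 56.7 on day 4 and between 30.9 and 35.3 on day 8. All 5 of the 8 that could be tested were called higher between days in BAT and in the day by depot contrast (median 1.53). In the latter, all 5 macrophage markers tested were lower (median -1.10), and 4 of 5 precursor markers were lower and 1 higher. Of 10 mature adipocyte markers 4 were higher and 3 lower, and of 5 brown markers 3 and 2. Of 3 white markers tested 1 was lower, and 0 of 5 endothelial markers were called. The part of these cells in the result was not tested.

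**Figure D4:**
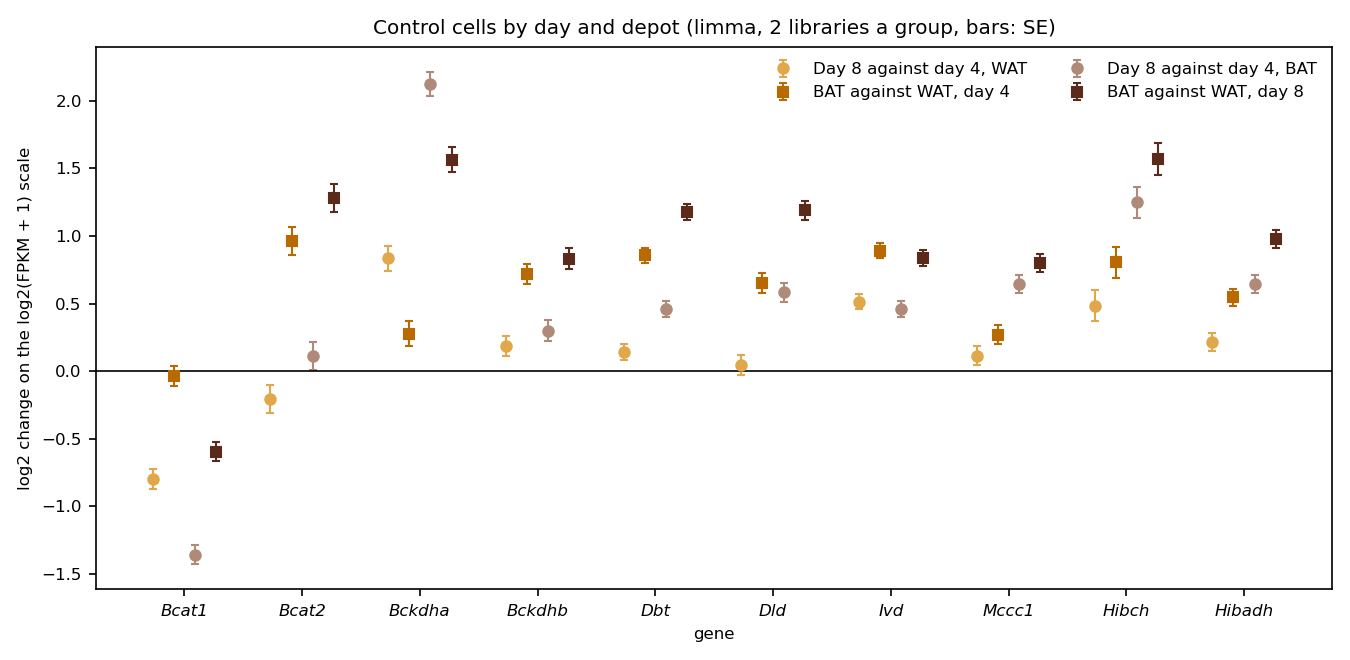
Log2 change in control cells on the log2(FPKM + 1) scale (y axis) for each of the 10 genes (x axis), from limma on 2 libraries a group, with bars for the standard error; circles are day 8 against day 4 (orange WAT, brown BAT) and squares BAT against WAT (orange day 4, dark brown day 8). Bckdha has the largest rise with time in BAT, at 2.12, and Bcat1 is lower on day 8 than on day 4 in both depots, at -0.79 and -1.36.

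BAT controls held more of these transcripts than WAT controls. On day 4, 9 genes were called higher in BAT and 0 lower with limma (41.4% and 14.4% of all genes); no member had an unadjusted p under 0.05 in the lower direction, limma voom also called 0 lower, and 1, Bcat1, was called lower when both tables were fitted together (-0.16). On day 8, 9 were higher and 1 lower (31.6% and 22.0%). The largest day 4 differences were those of Bcat2 (0.96 ± 0.10, adjusted p = 1.9e-05), Ivd (0.89 ± 0.06, adjusted p = 5.1e-07) and Dbt (0.86 ± 0.06, adjusted p = 5.7e-07). On day 8 they were those of Hibch (1.57 ± 0.12, adjusted p = 6.0e-07), Bckdha (1.56 ± 0.09, adjusted p = 9.7e-08) and Bcat2 (1.28 ± 0.10, adjusted p = 1.3e-06). Bcat1 was at about the same level in both depots on day 4 (a difference of -0.03, 95% interval -0.19 to 0.13) and lower in BAT on day 8 (-0.59 ± 0.07, adjusted p = 3.5e-05). Mature adipocyte markers were mostly higher in BAT controls too. Of 10, 8 were called higher and 1 lower on day 4 (median 0.97), and 8 and 0 on day 8 (0.95). Of 5 macrophage markers tested, 4 were higher and 0 lower on day 4, and 0 and 2 on day 8. For 5 skeletal muscle markers tested these counts were 0 and 4, then 1 and 0. For 5 precursor markers they were 1 and 3, then 0 and 4, and for 5 endothelial markers 1 and 2, then 0 and 3. Brown markers (5) gave 2 and 0, then 5 and 0, and white markers (3 tested) 0 and 3 on both days. The part of all these cells in the depot differences was not tested.

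In the day 4 depot comparison the calls also moved with scaling. Over all genes the split changed from 5842 higher and 2025 lower to 3481 and 3272 with median-ratio scaling and to 3641 and 3052 with quantile normalization, and the median of all genes changed from 0.15 to 0.02. The calls of Bckdha (0.28, adjusted p = 0.023) and Mccc1 (0.27, adjusted p = 0.0058) were lost with both scalings, leaving 7 of the 10 genes higher. Bckdha also lost its call with no filter and without replicate 1 (0.30) or replicate 2 (0.25) of the WAT day 4 controls and without replicate 2 of the BAT day 4 controls (0.15), and Mccc1 without the last of these (0.22) and with both tables fitted together (0.13). The other 7 genes were called under all alternatives run here.

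For each of the 9 genes that fell, all 4 EGCG group means lay below all 4 control means. The share of all genes tested that separate in this way, or whose control and EGCG libraries do not overlap, was not counted. The day 8 EGCG means in BAT and WAT were close for some of the 9 genes, such as 16.2 and 16.4 FPKM for Bcat2, 6.66 and 6.42 for Bckdhb and 46.9 and 48.2 for Dld. They lay further apart for Dbt (11.3 and 8.82 FPKM) and Hibch (10.2 and 7.93 FPKM). The EGCG effect was more negative in BAT than in WAT for 9 genes on day 8 (19.7% of all genes called lower, 19.4% higher) and for 3 genes on day 4 (16.1% and 12.0%). The 3 were Ivd (-0.63 ± 0.08), Dbt (-0.62 ± 0.08) and Dld (-0.39 ± 0.10). On day 8 the differences ran from -0.71 ± 0.10 (Mccc1) to -1.70 ± 0.13 (Bckdha), and the increase of Bcat1 was 0.25 larger in BAT (95% interval 0.02 to 0.48, adjusted p = 0.075). The Bcat1 difference passed with a pseudocount of 0.1 (0.34), with limma voom (0.36), with quantile normalization (0.29), without replicate 2 of the WAT day 8 controls (0.32) and without replicate 2 of the BAT day 8 controls (0.32).

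The more negative EGCG effect in BAT was not limited to the 10 genes. On day 8, 18 of 20 general mitochondrial genes and 13 of 14 other breakdown enzymes were called lower in this comparison. Their medians were -1.05 and -1.04, beside -0.85 for the 10 genes. On day 4, 6 and 7 were called lower (-0.19 and -0.29, beside -0.31). Neither list had a gene called higher on either day. The day 4 count of the 10 genes moved with the setting. It was 5 with quantile normalization, 6 with both tables together, and 5 or 6 without BAT day 4 EGCG replicate 2 or BAT day 4 control replicate 1. Dld was lost with median-ratio scaling (-0.29), with no filter, and without replicate 2 of the WAT day 4 controls (-0.30), replicate 1 of the WAT day 4 EGCG libraries (-0.36) or replicate 2 of the BAT day 4 controls (-0.31). The split of all genes went from 1689 higher and 2270 lower to 2323 and 1454 with median-ratio scaling.

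Between days, the EGCG effect in BAT was more negative on day 8 than on day 4 for 9 genes and more positive for Bcat1 (20.6% of all genes called lower and 34.7% higher). The largest of these differences was that of Bckdha, at -2.32 ± 0.13 (adjusted p = 1.1e-07), followed by Hibch at -1.46 ± 0.16 (adjusted p = 1.9e-05) and Ivd at -1.14 ± 0.08 (adjusted p = 7.2e-07). The Bcat1 difference of 0.32 ± 0.10 (adjusted p = 0.022) was lost with median-ratio scaling (0.20), with both tables together (0.21), with no filter, and without replicate 1 of the BAT day 4 controls (0.24), of the BAT day 8 controls (0.25) or of the BAT day 8 EGCG libraries (0.29) or replicate 2 of the BAT day 4 EGCG libraries (0.26). Median-ratio scaling moved the split of all genes from 4897 higher and 2906 lower to 3535 and 3636. In WAT 6 genes had a more negative effect on day 8 and 1, Bcat2, a less negative one (19.7% and 29.7% of all genes). The 6 ranged from Ivd (-0.99 ± 0.08) and Bckdha (-0.98 ± 0.13) to Hibadh (-0.28 ± 0.09). The Hibadh call was lost with no filter, without replicate 2 of the day 4 controls (-0.26), of the day 8 controls (-0.21) or of the day 8 EGCG libraries (-0.25) and without replicate 1 of the day 4 EGCG libraries (-0.24). For Bcat2 the WAT difference was 0.47 ± 0.15 (adjusted p = 0.021), and the call was lost with no filter and without replicate 1 of the day 4 controls (0.33), of the day 8 controls (0.32), of the day 4 EGCG libraries (0.46) or of the day 8 EGCG libraries (0.45). Of 20 general mitochondrial genes, 14 had a more negative effect on day 8 and 4 a more positive one in BAT. The median was -0.71, beside -0.86 for the 10 genes. In WAT 1 was more negative and 8 more positive (0.14 beside -0.42). Of 14 other breakdown enzymes, 14 were more negative in BAT (-1.12) and 8 in WAT (-0.35), and 0 more positive. All of these comparisons share control libraries with the EGCG, day and depot comparisons and are not independent of those.

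Other enzymes of the pathway moved with the 10 genes. Of 14 further breakdown enzymes, 9 were called lower and 3 higher with EGCG in WAT on day 4, 12 and 1 in WAT on day 8, 11 and 1 in BAT on day 4, and in BAT on day 8 13 were lower and 1 was not called. Their median log2 changes were -0.42, -0.69, -0.69 and -1.78. In BAT on day 8 the largest falls were those of Aldh6a1, the valine-branch semialdehyde dehydrogenase, from a mean of 145 to 9.31 FPKM (-3.82), Pcca and Pccb, the subunits of propionyl-CoA carboxylase (-3.27 and -2.87), and Echs1, a short-chain enoyl-CoA hydratase (-2.63). Aldh6a1 and Pccb also fell in WAT, by 1.28 and 1.32 on day 4 and by 2.33 and 1.49 on day 8.

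Of 6 genes that control BCKDH or carry branched-chain amino acids, fewer were called. EGCG lowered 1 in WAT on day 4, 3 in WAT on day 8, 5 in BAT on day 4 and 5 in BAT on day 8, and raised 1 in each depot on day 8, with medians of -0.07, -0.20, -0.32 and -0.84. Slc7a8, a light chain of neutral amino acid exchange at the plasma membrane, was lower in all 4 comparisons (-0.95, -1.90, -0.996 and -1.14), and Slc3a2, the shared heavy chain, was higher on day 8 in WAT (0.59) and BAT (0.39). In BAT on day 8 Ppm1k, the phosphatase that activates BCKDH, fell by 1.06 and Slc25a44, the mitochondrial carrier for branched-chain amino acids, by 0.95. Bckdk, the kinase that inactivates BCKDH, was at a mean of 11.9 FPKM with EGCG and 20.4 FPKM in controls there (-0.72). Bckdha over Bckdk within a library was accordingly 8.35 to 8.87 in BAT day 8 controls and 1.59 to 1.72 with EGCG.

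A list of 20 general mitochondrial genes (citrate synthase, respiratory chain subunits, import and carrier proteins) fell as well, with medians of -0.53, -0.33, -0.69 and -1.49 beside -0.53, -1.25, -0.99 and -2.06 for the 10 breakdown genes. In WAT, 18 of the 20 were lower and 1 higher on day 4, where both medians were -0.53, and 12 were lower and 6 higher on day 8. In BAT, 17 were lower on day 4, and on day 8 19 were lower and 1, Tomm20, was higher (0.38). Among the falls there, Sdha (-2.08), Cycs (-1.87) and Cs (-1.86) were the largest. In controls, 14 of the list were higher and 4 lower on day 8 than on day 4 in BAT (median 0.72, beside 0.52 for the 10 genes) and 3 were higher and 8 lower in WAT (-0.08 beside 0.17). Between depots, 17 were higher in BAT on day 4 (median 0.52 beside 0.69) and 19 on day 8 (1.25 beside 1.08). The medians describe the lists and were not tested against each other.

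**Figure D5:**
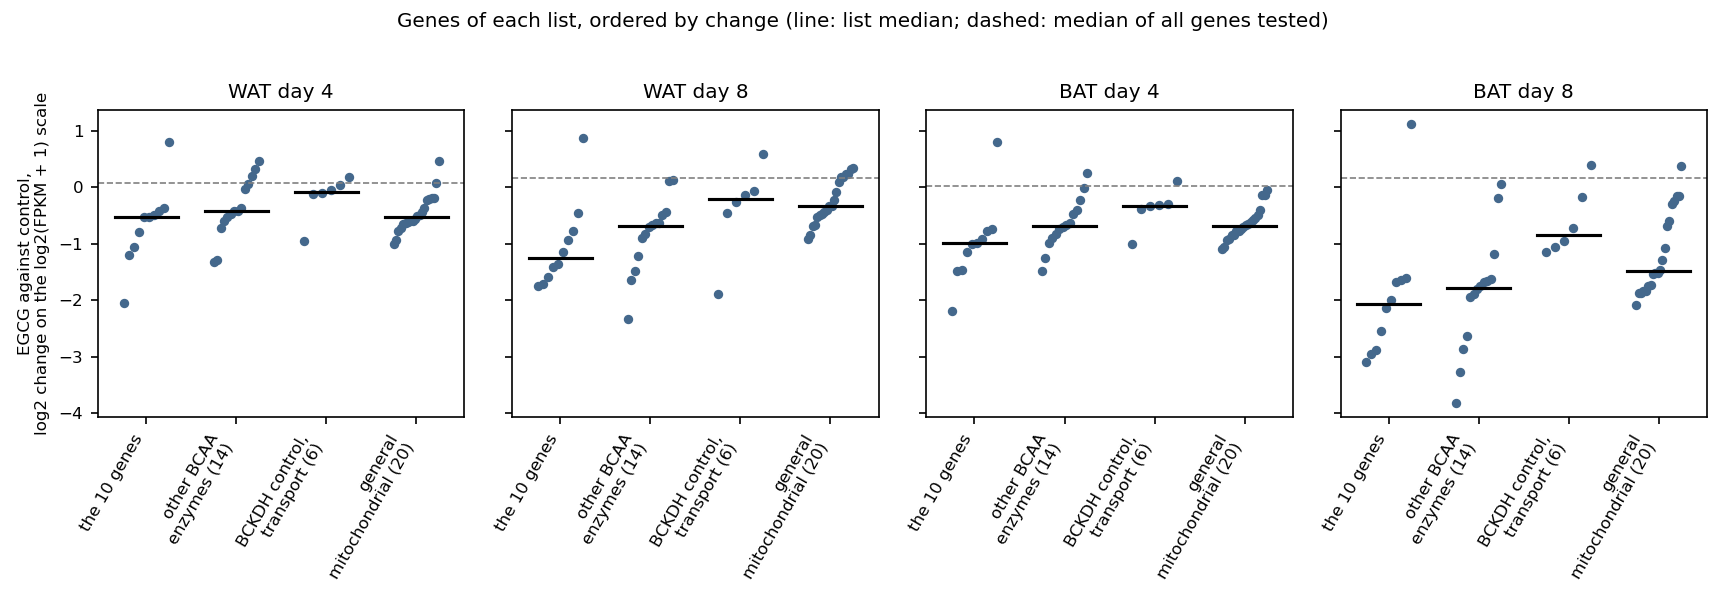
Log2 change with EGCG against control (y axis) for each gene of 4 lists (x axis) in the 4 comparisons (panels); points are genes, black lines list medians and dashed lines the median of all genes tested. In BAT on day 8 the medians were -2.06, -1.78, -0.84 and -1.49 from left to right, against 0.17 for all genes.

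Markers of mature adipocytes moved with the same groups. The summed FPKM of 10 such markers was 3730 to 4105 in WAT day 4 controls and 1106 to 1157 with EGCG, and 6183 to 6962 in day 8 controls and 651 to 713 with EGCG. In BAT it was 6354 to 7364 and 1542 to 1606 on day 4 and 11165 to 11243 and 474 to 482 on day 8. All 10 were called lower in each of the 4 EGCG comparisons, with medians of -2.81, -4.74, -2.18 and -4.40. The leptin gene Lep was at or under 3 reads in both WAT EGCG groups. Their part in the changes of the breakdown genes was not tested. Bcat1 rose in the same libraries in which this sum fell.

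Markers of other cells differed with EGCG too. The summed level of 6 macrophage markers was 178 to 182 FPKM with EGCG against 66.4 to 71.4 in controls in WAT on day 4 and 340 to 381 against 151 to 161 in BAT on day 4, and it was lower with EGCG on day 8 (55.0 to 58.3 against 94.9 to 107 in WAT and 57.2 to 57.9 against 101 to 104 in BAT). For 5 endothelial markers the sum was higher with EGCG in both depots on both days, for example 32.0 to 33.1 against 15.0 to 15.7 FPKM in BAT on day 8. Precursor markers (5 genes) summed to 524 to 530 FPKM with EGCG and 347 to 377 FPKM in controls in WAT on day 4 and to 387 to 433 and 313 to 383 in BAT on day 4. They summed to 785 to 801 FPKM with EGCG and 1147 to 1296 FPKM in controls in WAT on day 8, and to 418 to 433 and 411 to 428 in BAT on day 8. The 5 precursor markers did not move together, and 1 was called higher in each comparison. Those called lower numbered 2 (WAT day 4), 4 (WAT day 8), 1 (BAT day 4) and 3 (BAT day 8). The 8 skeletal muscle markers summed to 98.1 to 102 FPKM with EGCG against 55.0 to 56.7 in controls in WAT on day 4, where all 5 that could be tested were called higher. The sums were 34.4 to 41.5 against 30.9 to 35.3 in WAT on day 8, 19.6 to 22.9 against 14.3 to 22.3 in BAT on day 4, and 31.5 to 32.9 against 42.1 to 44.4 in BAT on day 8, with 1, 0 and 0 called higher and 0, 0 and 2 lower. The part of these cells in the changes of the 10 genes was not tested. The 5 brown markers summed to 34.6 to 36.0 FPKM in BAT day 8 controls and 19.8 to 20.9 with EGCG, and to 8.37 to 9.36 and 7.10 to 7.37 in WAT on day 8. Among them Ucp1, the uncoupling protein that defines brown fat, was at 6.97, 6.15 and 4.20 FPKM in BAT day 8 controls and listed at 0 in all 3 BAT day 8 EGCG libraries. Of the 5 brown markers, 3 were called lower and 2 higher there, the latter being Zic1, from a mean of 3.81 to 7.89 FPKM, and Lhx8, from 10.3 to 12.1 FPKM (9.94 and 10.4 after rescaling). The white markers summed to more in WAT than in BAT in every matched pair of groups, such as 24.9 to 25.0 against 3.39 to 3.88 FPKM in day 8 controls.

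Across the 16 libraries of replicates 1 and 2, the 10 genes fell into those that moved almost in parallel and those that did not. Likeness was measured as the root mean square difference of log2(FPKM + 1), each gene centred on its own mean, so that 0 means parallel profiles. The closest pair was Dld and Hibadh (0.105), followed by Dbt and Ivd (0.141) and Mccc1 and Hibadh (0.154). The subunits of E1 were less alike (0.549), and Bcat1 and Bcat2 were the least alike of all pairs (1.71). Among 8704 genes with a mean of at least 5 FPKM, the profile nearest to that of Bcat1 was that of Pitpnc1 (0.127), a phosphatidylinositol transfer protein, followed by Sdc1 (0.192), a syndecan, and Slc25a37 (0.211), a mitochondrial iron importer. For Bcat2 they were Aifm2 (0.270), Dgat1 (0.316), an enzyme of triglyceride synthesis, and Fam195a (0.318). The median difference over all 8704 genes was 0.688 from Bcat1 and 1.27 from Bcat2. Libraries of a group share their condition, and these distances are a description.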

How the data were processed

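The authors deposited FPKM values per gene in 2 tables, replicates 1 and 2 of all groups in 1 and replicate 3 in the other, each normalised on its own. The submitters' processing notes name FastQC 0.11.9, HISAT2 2.2.0, HTSeq 0.11 and mm9, with no role or order; strandedness is not given in the sources used here. Lengths behind the FPKM values equalled the longest GENCODE vM1 transcript for all 37310 genes, and at least 99.83% of values in each library came out as whole multiples of 1 read, within a tolerance of 0.01, from which read totals were recovered.

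Genes reaching 1 FPKM in at least 2 of the 16 libraries of replicates 1 and 2 were kept (14095), and log2(FPKM + 1) was fitted with limma 3.58.1 in R 4.3.3 over 8 group means (8 residual degrees of freedom), with p-values adjusted by Benjamini-Hochberg over all genes tested in each of 13 contrasts. A fold change on this scale understates that of low genes. Replicates 1 and 2 of each group differed by more than sampling noise (median chi-square per gene 1.62 to 3.90, against 0.455 for sampling alone). The script was tested on simulated data.

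The 10 genes were named by symbol. The other lists, all 93 entries of which matched, were limited to the 4 largest called changes a comparison, and for Bcat1 and Bcat2 the 3 most alike genes were named. Slc3a2, Tomm20 and Lhx8 in BAT on day 8 are named outside that rule, as members of their lists called higher there, and the ratios within libraries and limma voom were likewise chosen after the values were seen. The genes, lists and tests were chosen with earlier results of these data known. Alternatives were another pseudocount (0.1), no filter, median-ratio scaling, quantile normalization, a replicate block, both tables fitted together, each library left out, and limma voom on recovered reads. The fit of both tables used median-ratio scaling and the table as a factor.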

Additional observations from a re-analysis of the deposited data

Results flagged for a closer look

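For the results here, a difference between the effects of 2 groups passed its own test (the interaction term in limma, adjusted p under 0.05 over all genes), which is what singled them out. Values are differences of log2 changes on the log2(FPKM + 1) scale, with n = 2 per group, and no explanation was weighed.

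The EGCG effect was more negative on day 8 than on day 4 in WAT for Bckdha (-0.98), Bckdhb (-0.56), Dbt (-0.61), Ivd (-0.99), Hibch (-0.65) and Hibadh (-0.28), and less negative for Bcat2 (0.47). In BAT it was more negative on day 8 for Bcat2 (-0.69), Bckdha (-2.32), Bckdhb (-1.07), Dbt (-0.85), Dld (-0.75), Ivd (-1.14), Mccc1 (-0.65), Hibch (-1.46) and Hibadh (-0.87), and more positive for Bcat1 (0.32).

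The EGCG effect was more negative in BAT than in WAT on day 4 for Dbt (-0.62), Dld (-0.39) and Ivd (-0.63). On day 8 this held for Bcat2 (-1.30), Bckdha (-1.70), Bckdhb (-0.79), Dbt (-0.85), Dld (-1.23), Ivd (-0.78), Mccc1 (-0.71), Hibch (-1.25) and Hibadh (-0.85). Bcat2 thus had a less negative effect on day 8 than on day 4 in WAT and a more negative one in BAT.

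The change from day 4 to day 8 in controls was larger in BAT than in WAT for Bckdha (1.29), Dbt (0.32), Dld (0.53), Mccc1 (0.53), Hibch (0.76) and Hibadh (0.43), and more negative in BAT for Bcat1 (-0.56). Which of these calls depend on 1 library or on the scaling is given with each comparison in the report.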

How the results depend on the processing

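The 1 higher and 9 lower genes in each EGCG comparison kept their calls under every alternative run. Over all 130 results for single genes (10 genes in 13 contrasts), the call and direction were the same for 129 with a pseudocount of 0.1, 128 with limma voom, 123 with no filter, 122 with median-ratio scaling, 122 with quantile normalization and 119 with both tables fitted together. The negative binomial count tests first planned were not run because the files hold FPKM, and limma voom took their place. Where a library was left out, the lone sample of its group was assumed to vary like the other groups. The causes of the changes listed here were not tested.

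With median-ratio scaling, genes called lower with EGCG in WAT on day 4 numbered 4131 and genes called higher in WAT on day 8 numbered 4087; for BAT against WAT on day 4 it gave 3481 higher and 3272 lower, and quantile normalization 3641 and 3052. For the EGCG effect between depots on day 4, median-ratio scaling called 1454 genes lower. Fitting both tables together also applied median-ratio scaling, so scaling and added libraries changed at once. The lower counts were then 4581 (EGCG, WAT day 4), 4431 (EGCG, WAT day 8) and 3673 (BAT against WAT, day 4). The higher counts were 2879 (EGCG effect between depots, day 4) and 3250 (day by depot in controls). Without the WAT day 8 EGCG library of replicate 3, that fit gave 4580, 4143, 3654, 2851 and 3236 for the same counts and 4142 higher with EGCG in WAT on day 8.

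Among the 10 genes, 3 instead of 5 were higher on day 8 in WAT controls with no filter, and 2 instead of 1 lower with both tables, with or without that library. Both of these fits called 1 gene lower in BAT on day 4. The count with a higher EGCG effect on day 8 than on day 4 went from 1 to 0 with no filter in WAT, and in BAT with no filter, median-ratio scaling or both tables. On day 4 the EGCG effect was lower in BAT for 5 genes with quantile normalization and for 6 with both tables. On day 8 it was higher for 1 gene, Bcat1, with a pseudocount of 0.1, quantile normalization, limma voom, or both tables without that library.

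Directions turned only for uncalled changes. Bcat2 between days in BAT was -0.0032 with quantile normalization. For the EGCG effect between days in WAT, Dld was -0.016 with quantile normalization, -0.040 with both tables and -0.015 without that library, which also turned Bcat1 (-0.039). Ivd in the day by depot contrast was 0.057 with median-ratio scaling and 0.050 with both tables.

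Leaving out each library in turn, day 8 against day 4 in WAT called 3 to 6 genes higher and 1 to 2 lower. The EGCG effect between days called 0 to 1 higher in WAT and 0 to 1 in BAT, and that between depots 2 to 6 lower on day 4 and 0 to 1 higher on day 8. The uncalled changes that turned ranged from -0.049 to 0.15 (Dld, days in WAT), -0.017 to 0.24 (Bcat2, days in BAT), -0.11 to 0.042 (Bcat1, depots on day 4), -0.0013 to 0.13 (Bcat1) and -0.0096 to 0.18 (Dld) for the EGCG effect between days in WAT, -0.073 to 0.079 (Bcat1, EGCG effect between depots on day 4) and -0.14 to 0.029 (Ivd, day by depot).

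The labels do not say whether same-numbered libraries share animals or a culture day, and this was not tested. Over 28 pairs of groups the deviations of same-numbered libraries correlated at -0.079 to 0.081, and 0 pairs exceeded 0.1. Only the libraries used for the tests entered these correlations, and those of the separately normalised table did not. A replicate block left 129 of the 130 results with the same call, and the EGCG effect of Bckdha between depots on day 4 then passed at -0.35. Depth does not limit the 10 genes, each of which had at least 146 reads in every library, and 2 libraries a group limit the precision of the tests.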
